A study of Mus musculus with 5 samples.

Results

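Heme is made from glycine and succinyl-CoA in a short chain of enzymes, and the 8 genes described here encode the enzymes of its first step (Alas1 and Alas2) and of most later steps (Alad, Uros, Urod, Cpox, Ppox and Fech). They were taken by exact gene symbol from count tables of mouse bone marrow RNA, where all 8 were found among 55291 symbols. The first enzyme exists as a general form, ALAS1, made in all cells and repressed by heme, and as an erythroid form, ALAS2, made in developing red cells under GATA1. The first and the last steps take place in mitochondria and the middle steps in the cytosol. Red cell precursors make far more heme than other cells because of haemoglobin. Monocytes and macrophages make heme for cytochromes and other enzymes, and macrophages also break down the heme of ageing red cells.

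The samples were 2 Tet2-mutant libraries (replicates 2 and 3) and 3 wild-type libraries (replicates 1, 2 and 3) of bone marrow cells labelled as monocytes. Tet2 oxidises methylcytosine in DNA. The Tet2 allele, the age and treatment of the mice, the isolation of the cells and whether libraries came from separate animals were not stated in the sources read, so each p-value covers the spread among these 5 libraries alone. Levels are CPM, counts per 1e6 of the library total after scaling by the TMM method.

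The Tet2-mutant libraries held 17459808 and 60508381 counts, and the wild-type libraries 53789308 to 72414875. Tet2 itself measured 5.31 and 15.6 CPM in Tet2-mutant replicates 2 and 3 against 9.77 to 11.9 CPM in the wild type, so its level does not check the labels. The monocyte gene Csf1r was present in all 5 libraries, at 332 to 520 CPM in the mutant and 102 to 137 CPM in the wild type. Another monocyte gene, F13a1, went the other way, at 236 and 68.5 CPM in the mutant and 351 to 436 CPM in the wild type. Transcripts of other marrow cells were present in all 5 libraries too. The globin gene Hbb-bs measured 6845 and 1162 CPM in Tet2-mutant replicates 2 and 3 and 2754, 3887 and 8408 CPM in the wild type. Tet2-mutant replicate 2 held both Xist (27.4 CPM) and Y-linked transcripts (39.3 CPM, 4 genes summed), while of the other libraries Tet2-mutant replicate 3 and wild-type replicate 3 held mainly Xist and wild-type replicates 1 and 2 mainly the Y-linked genes. Over all tested genes, 2556 of 17062 differed between the genotypes, or 15.0% (quasi-likelihood test of edgeR, p adjusted by Benjamini-Hochberg and under 0.05).

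RefSeq promoter windows were matched for 7 of the 8 genes. The sequences before the starts of Alas1, Alas2 and Cpox are shown because Alas1 and Alas2 carry the contrast between the general and the erythroid first step, and because Cpox and Alas2 had the lowest shares of their wild-type means in Tet2-mutant replicate 3. They are the 250 bases before the outermost RefSeq start in GRCm38.p6, written 5′ to 3′ on the strand of the gene. Capitals mark matches to the GATA motif (AGATAA or TGATAA) and to the CACC box (CACCC), each searched on both strands. The windows lie at chr9:106247955-106248204 on the minus strand for Alas1, chrX:150547167-150547416 on the plus strand for Alas2 and chr16:58669958-58670207 on the plus strand for Cpox. The Alas1 window lies inside the longer gene span that GENCODE gives. The Alas2 window runs past the GENCODE start at 150547375, so its last bases lie inside that gene span. The Cpox window ends before the GENCODE start at 58670292. Distances below are therefore from the RefSeq starts and differ from those to the GENCODE starts.
Alas1: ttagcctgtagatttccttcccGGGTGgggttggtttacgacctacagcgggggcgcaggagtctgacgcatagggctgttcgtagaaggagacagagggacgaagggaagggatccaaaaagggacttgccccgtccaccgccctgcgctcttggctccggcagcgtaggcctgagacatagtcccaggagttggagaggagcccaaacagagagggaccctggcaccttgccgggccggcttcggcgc
Alas2: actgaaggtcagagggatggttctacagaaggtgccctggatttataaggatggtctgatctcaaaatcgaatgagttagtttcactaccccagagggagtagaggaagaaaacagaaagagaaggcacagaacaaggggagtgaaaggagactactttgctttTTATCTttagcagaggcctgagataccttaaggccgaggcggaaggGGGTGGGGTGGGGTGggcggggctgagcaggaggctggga
Cpox: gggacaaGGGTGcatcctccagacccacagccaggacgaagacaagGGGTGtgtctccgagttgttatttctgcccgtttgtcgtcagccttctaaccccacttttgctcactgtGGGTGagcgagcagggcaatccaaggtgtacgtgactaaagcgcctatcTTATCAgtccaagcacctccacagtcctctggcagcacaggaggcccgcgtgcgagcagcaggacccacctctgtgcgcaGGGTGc
A GATA match was found in the windows of Alas2 and Cpox, in each case starting 86 bases before the RefSeq start. None of the other 5 member windows held one, whereas 16.9% of 27025 mouse gene windows of this length do. The 3 CACC matches of Alas2 lie side by side on the reverse strand, inside the gene span of GENCODE. CACC matches were found in 3 of 7 member windows (Alas1, Alas2 and Cpox), against 51.3% of all windows. CCAAT, a common promoter motif, was found in 3 of 7 (Alad, Urod and Ppox) against 34.5%. These matches describe letters and not bound sites, and no window of Fech was used.

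All 8 enzymes had a negative log2 fold change of Tet2 mutant over wild type, with a median of -0.89 against -0.07 over all tested genes, but a single one, Uros, passed the test. The background share of genes called lower was 4.43%. On the TMM scale both mutant libraries lay below every wild-type library for 4 of the 8, Alas1, Uros, Cpox and Ppox. Among all tested genes 33.3% did so. With library totals as the scale both mutant libraries did so for all 8, and the share of all tested genes was not counted. That scale shifted the log2 fold changes of all genes by a median of -0.50. Without the TMM factor Tet2-mutant replicate 2 had 579, 337, 194 and 620 CPM for Alas2, Alad, Urod and Fech. The lowest wild-type values were then 613, 425, 263 and 643 CPM. CPM values and ranges elsewhere are on the TMM scale. The summed level of the 8 genes was 3282 and 705 CPM in Tet2-mutant replicates 2 and 3, against 2887, 3264 and 5267 CPM in the wild-type libraries. On this TMM scale Tet2-mutant replicate 2 lay inside the wild-type range of the sum, and Tet2-mutant replicate 3 far below it.

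**Figure D1:**
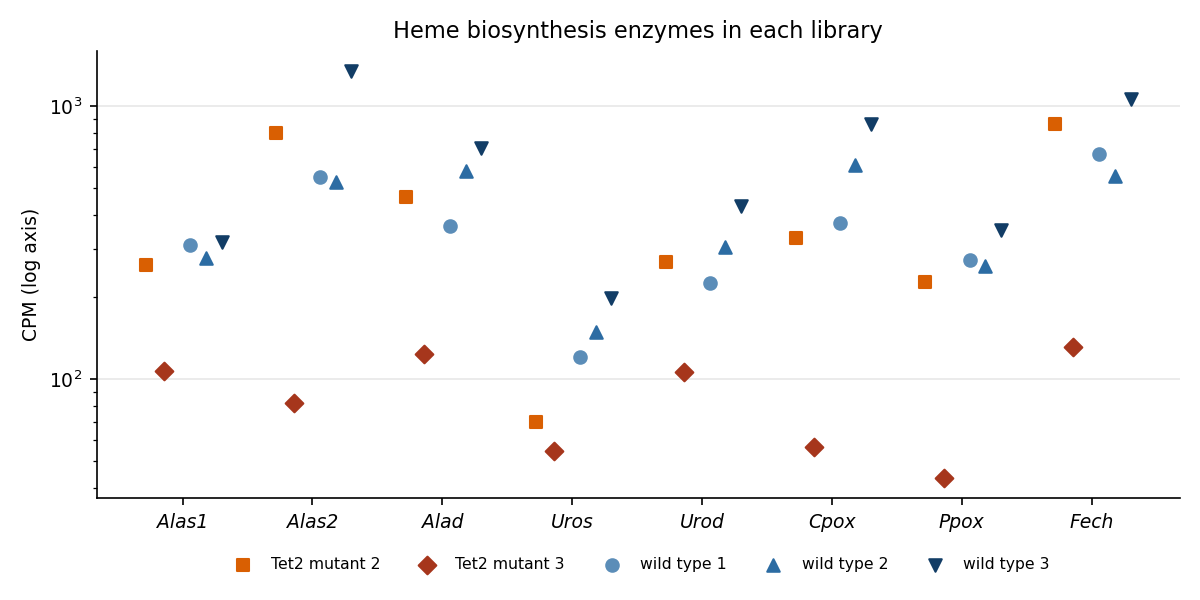
Level of each heme enzyme in CPM (log axis) in the 2 Tet2-mutant libraries (squares and diamonds) and the 3 wild-type libraries (circles and triangles), 1 point per library. Tet2-mutant replicate 3 is the lowest point for every gene, and wild-type replicate 3 is the highest for all 8.

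Alas1 encodes the general, heme-repressed form of the first and rate-setting enzyme, 5-aminolevulinate synthase (chromosome 9, 106233455 to 106248654, minus strand, in GENCODE M21, GRCm38). It measured 263 and 107 CPM in Tet2-mutant replicates 2 and 3 and 310, 277 and 318 CPM in wild-type replicates 1, 2 and 3. Both mutant libraries were below the narrow wild-type range, replicate 2 by little. The means were 185 ± 110 CPM in the mutant (SD, n = 2) and 302 ± 21.6 CPM in the wild type (SD, n = 3). The log2 fold change of -0.71 ± 0.38 (SE) did not pass (adjusted p = 0.204). With a coefficient of variation of 7.16% Alas1 was the steadiest of the 8 among wild-type libraries.

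Alas2 encodes the erythroid form of the same enzyme (chromosome X, 150547375 to 150570638, plus strand). Its level was 801 and 81.9 CPM in Tet2-mutant replicates 2 and 3, and 550, 529 and 1345 CPM in the wild-type libraries. Tet2-mutant replicate 2 lay within the wild-type range and replicate 3 far below it. Alas2 was also the most variable of the 8 in the wild type, with a coefficient of variation of 57.6%. The log2 fold change was -0.87 ± 0.87 (adjusted p = 0.467). Alas2 is X-linked, and the libraries with Xist, with 27.4 and 21.1 CPM in Tet2-mutant replicates 2 and 3 and 32.3 CPM in wild-type replicate 3, included both its lowest and its highest level.

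The general and the erythroid form were compared within each library, where the scaling of libraries plays no part. There were 3.05 and 0.764 Alas2 counts per Alas1 count in Tet2-mutant replicates 2 and 3, and 1.77, 1.91 and 4.23 in wild-type replicates 1, 2 and 3. Tet2-mutant replicate 3 was thus the 1 library with fewer Alas2 than Alas1 counts. The log2 ratio of Alas1 to Alas2 averaged -0.61 ± 1.41 in the mutant (SD, n = 2) and -1.28 ± 0.70 in the wild type (SD, n = 3), a difference of 0.67 that the spread covers (exact two-sided permutation test, p = 0.6; 2 against 3 libraries cannot go below 0.2). Without Tet2-mutant replicate 3 the difference was -0.33. Per kilobase of the longest coding transcript, the level of Alas2 was 5.09 and 1.27 times that of Alas1 in Tet2-mutant replicates 2 and 3, and 2.96, 3.18 and 7.06 times in the wild type.

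Alad, the cytosolic enzyme of the second step, which joins 2 molecules of 5-aminolevulinate (chromosome 4, 62509169 to 62519918), measured 466 and 124 CPM in Tet2-mutant replicates 2 and 3, against 364, 581 and 706 CPM in the wild-type libraries. The groups overlapped through Tet2-mutant replicate 2, and the log2 fold change was -0.90 ± 0.56 (adjusted p = 0.257).

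Uros, uroporphyrinogen III synthase, which closes the tetrapyrrole ring (chromosome 7, 133686243 to 133710072), was the enzyme that fell. It measured 69.6 and 54.6 CPM in Tet2-mutant replicates 2 and 3 and 120, 148 and 199 CPM in wild-type replicates 1, 2 and 3. The groups did not overlap and the mutant libraries were close to each other, with 62.1 ± 10.6 CPM in the mutant (SD, n = 2) and 156 ± 40.0 CPM in the wild type (SD, n = 3). The log2 fold change was -1.33 ± 0.31 (adjusted p = 0.036), a level 2.51-fold lower. The call was lost without wild-type replicate 1, 2 or 3 (adjusted p = 0.0593, 0.0887 and 0.126) with log2 fold changes of -1.35, -1.22 and -0.98, and it held without either mutant library. Genes called lower numbered 6 of 16164, 18 of 16075 and 14 of 16550 in the fits without wild-type replicate 1, 2 and 3. The main fit called 755 of 17062 lower. Uros shares its interval with Bccip on the opposite strand, without a shared exon in the annotation. Bccip had 2738 and 12794 counts in Tet2-mutant replicates 2 and 3, against 879 and 2959 for Uros, and 7004, 11435 and 7775 in the wild-type libraries, against 8982, 12463 and 12215 for Uros. The strand setting of the counting is not given, and the part of such reads in the Uros counts was not tested.

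Urod, which removes carboxyl groups to give coproporphyrinogen (chromosome 4, 116989965 to 116994413), measured 269 and 106 CPM in Tet2-mutant replicates 2 and 3 and 225, 305 and 430 CPM in the wild-type libraries, with Tet2-mutant replicate 2 inside the wild-type range. Its log2 fold change was -0.77 ± 0.45 (adjusted p = 0.233).

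Cpox, the first of the last 3 enzymes, which act in mitochondria (chromosome 16, 58670292 to 58717636), had the most negative estimate of the 8. Its level was 330 and 56.6 CPM in Tet2-mutant replicates 2 and 3, against 373, 609 and 858 CPM in the wild-type libraries. The groups did not overlap, but the mutant libraries lay 5.83-fold apart and the log2 fold change of -1.67 ± 0.72 did not pass (adjusted p = 0.131). Ppox, which oxidises protoporphyrinogen (chromosome 1, 171275990 to 171281186), measured 227 and 43.5 CPM in the mutant and 274, 259 and 351 CPM in the wild type, again without overlap (log2 fold change -1.13 ± 0.62, adjusted p = 0.207). Exons of Ppox overlap B4galt3 on the opposite strand, whose counts came to 19.8% and 64.1% of those of Ppox in Tet2-mutant replicates 2 and 3 and to 17.7% to 27.5% in the wild type, so that reads of the shared stretch are uncertain. Exons of Alas2 and Cpox likewise overlap Apex2 and Gpr15, whose counts reached at most 10.9% and 6.06% of theirs, both in Tet2-mutant replicate 3.

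Fech, ferrochelatase, which inserts iron to complete heme (chromosome 18, 64452914 to 64490251), measured 858 and 131 CPM in Tet2-mutant replicates 2 and 3 and 671, 554 and 1059 CPM in the wild-type libraries. The mutant libraries thus lay on either side of wild-type replicates 1 and 2, and the log2 fold change was -0.62 ± 0.70 (adjusted p = 0.522).

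Each mutant library was then set against the 3 wild-type libraries alone, in fits that take its spread to be that of the wild type. In Tet2-mutant replicate 2, Uros was again the 1 enzyme of 8 that was called lower (log2 fold change -1.17, adjusted p = 0.0344), where 18.4% of tested genes were lower. Levels of the other 7 ranged from 53.7% of the wild-type mean for Cpox to 113% for Fech, with Alas2 at 99.1% and Alas1 at 87.0%. In Tet2-mutant replicate 3 all 8 were lower, with adjusted p from 0.00104 for Ppox to 0.016 for Urod, where 32.2% of all tested genes were lower.

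The enzymes did not stand at equal levels in Tet2-mutant replicate 3. Alas1, Uros and Urod kept 35.6%, 35.0% and 33.1% of the wild-type mean. Alas2 and Cpox measured 10.1% and 9.22%, while Ppox, Fech and Alad lay between, at 14.8%, 17.2% and 22.5%. This order rests on 1 library and has no replicate check.

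**Figure D2:**
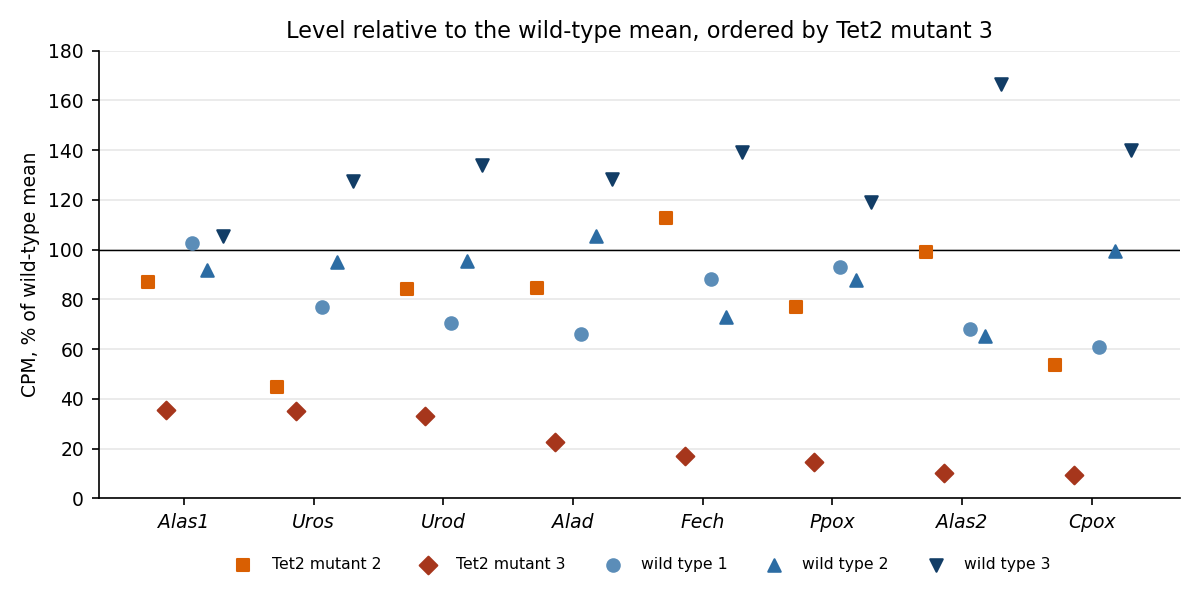
Level of each heme enzyme as a percentage of its wild-type mean, 1 point per library, with the line at the mean and genes ordered by Tet2-mutant replicate 3. That library runs downward in order from Alas1 (35.6%) to Cpox (9.22%), and Tet2-mutant replicate 2 is below all 3 wild-type libraries for Alas1, Uros, Ppox and Cpox.

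The later enzymes were also set against Alas1 within each library. Tet2-mutant replicate 3 had 0.509 Uros and 0.988 Urod counts per Alas1 count, within the wild-type ranges of 0.388 to 0.627 and 0.725 to 1.35. It had 0.527 Cpox and 0.406 Ppox counts per Alas1 count, below the wild-type ranges of 1.20 to 2.70 and 0.881 to 1.11. Fech, at 1.22 counts per Alas1 count, was 0.501 times its geometric mean in the wild type and also below all 3 wild-type libraries. Alad, at 1.16, lay just below its wild-type range of 1.17 to 2.22. In Tet2-mutant replicate 2 Uros (0.265) and, by little, Ppox (0.865) lay below the wild-type ranges, and the other 4 later enzymes lay within them. The summed later enzymes per Alas2, as a log2 ratio, averaged 2.06 ± 0.84 in the mutant (SD, n = 2) and 1.84 ± 0.40 in the wild type (SD, n = 3), a difference of 0.22 within the spread (exact two-sided permutation test, p = 0.6), and of -0.37 without Tet2-mutant replicate 3.

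**Figure D3:**
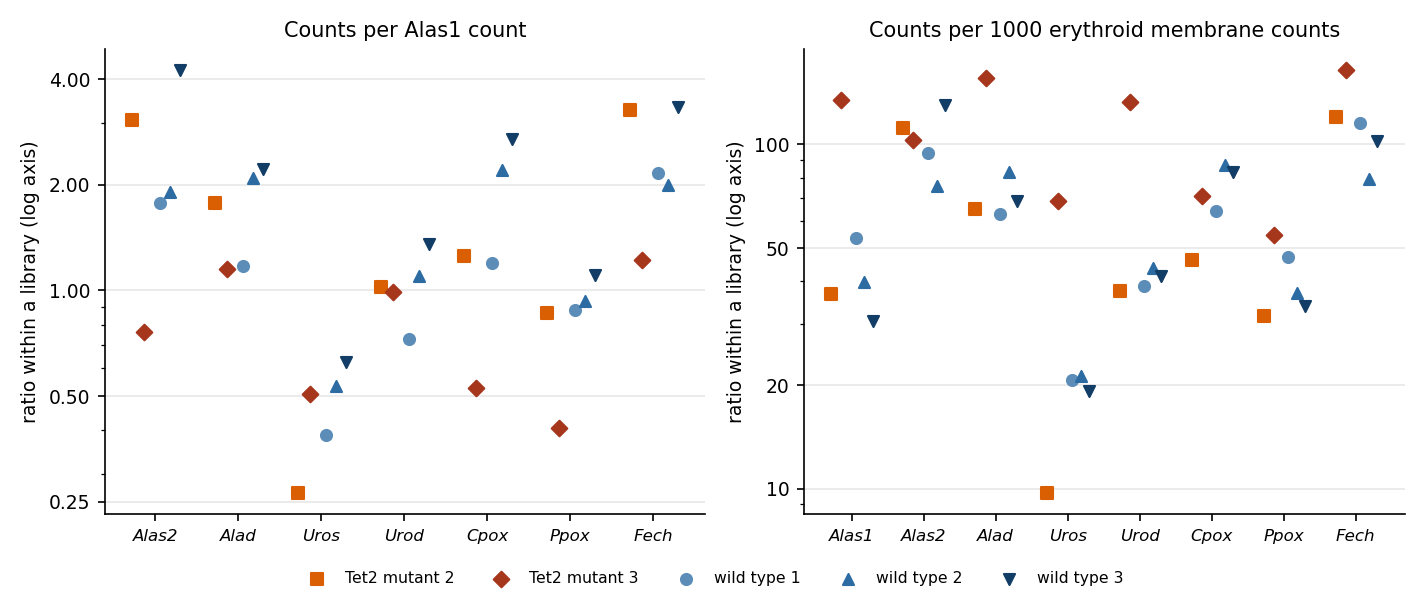
Counts of each heme enzyme per Alas1 count (left) and per 1000 counts of the erythroid membrane and surface list (right), both on log axes, 1 point per library. In Tet2-mutant replicate 3, all genes but Uros and Urod lie below the wild-type points on the left, and all but Alas2 and Cpox lie above them on the right.

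The enzymes were set beside other transcripts of red cell precursors. Of 15 tested membrane and surface genes, 2 fell (Epor and Ank1) and 13 did not pass, and all 15 had negative log2 fold changes (median -1.18). Over all tested genes 4.43% were called lower. Epor, the erythropoietin receptor, measured 34.3 and 12.8 CPM in Tet2-mutant replicates 2 and 3 and 81.1, 106 and 124 CPM in the wild-type libraries (log2 fold change -2.14 ± 0.47, adjusted p = 0.032). Ank1, a membrane skeleton anchor, fell by 2.04 ± 0.53 on the log2 scale (adjusted p = 0.0454). Of 10 erythroid regulators 1 fell, Zfpm1, the GATA1 partner FOG1 (log2 fold change -1.85 ± 0.36, adjusted p = 0.022), and the median was -1.09. GATA1 itself is encoded by Gata1, at 165 and 19.6 CPM in the mutant and 138, 180 and 236 CPM in the wild type, and the erythroid factor Klf1 measured 241 and 41.0 CPM against 350, 493 and 629 CPM. Neither passed (adjusted p = 0.342 and 0.104). The calls of Epor, Ank1 and Zfpm1 were lost in each fit without 1 wild-type library (adjusted p from 0.0534 to 0.23). In those fits 6 to 18 of all tested genes were called lower. With all 5 libraries kept, the alternatives called 2 to 10 of 15 membrane genes and 1 to 5 of 10 regulators lower. The highest count of membrane genes came with the replicate number as a block, where 232 of 17062 genes were called lower. With Tet2-mutant replicate 2 alone 3 of 15 membrane genes and 2 of 10 regulators were lower, near the 18.4% of all tested genes, and with Tet2-mutant replicate 3 alone 15 of 15 and 10 of 10, where 32.2% of all tested genes were lower.

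The summed level of the membrane and surface list was 7164 and 797 CPM in Tet2-mutant replicates 2 and 3, against 5809, 6977 and 10335 CPM in the wild-type libraries. As with the summed enzymes, Tet2-mutant replicate 2 was inside the wild-type range and Tet2-mutant replicate 3 was the low library. In such bulk RNA, fewer cells of a type and less RNA per cell cannot be told apart. The cell cycle list was also low in Tet2-mutant replicate 3, at 595 CPM summed, with 2441 CPM in Tet2-mutant replicate 2 and 3251 to 4491 CPM in the wild type, and its part in the enzyme levels was not tested.

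Relative to the membrane list, Alas2 in both mutant libraries lay within the wild-type range. There were 112 and 103 Alas2 counts per 1000 membrane counts in Tet2-mutant replicates 2 and 3, within the wild-type values of 94.7, 75.8 and 130. The log2 ratio differed between the genotypes by 0.13 (exact two-sided permutation test, p = 0.8), and by -0.050 without wild-type replicate 2. Cpox had 46.0 and 71.0 counts per 1000 membrane counts in the mutant, against 64.2, 87.3 and 83.0. Fech (120 and 164 against 79.5 to 116) lay above the wild-type range in both mutant libraries. Alas1 had 36.7 and 135 in Tet2-mutant replicates 2 and 3, against 30.7 to 53.4 in the wild type, and Alad 65.1 and 155 against 62.6 to 83.3. For 3 enzymes Tet2-mutant replicate 2 lay below and Tet2-mutant replicate 3 above the wild-type range. They were Ppox (31.7 and 54.6 against 34.0 to 47.1), Urod (37.5 and 133 against 38.8 to 43.8) and Uros, with 9.72 in Tet2-mutant replicate 2 and 68.5 in Tet2-mutant replicate 3 around a tight wild-type range of 19.3 to 21.3.

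Relative to the globin transcripts, Alas2 was lower in both mutant libraries. Per globin count of the list (4 genes) there were 0.068 and 0.0448 Alas2 counts in Tet2-mutant replicates 2 and 3, and 0.129, 0.0888 and 0.106 in the wild-type libraries. The log2 ratio averaged -4.18 ± 0.43 in the mutant (SD, n = 2) and -3.23 ± 0.27 in the wild type (SD, n = 3). The groups did not overlap, and the difference of -0.95 had the smallest p that this design allows (exact two-sided permutation test, p = 0.2). None of the 4 globin genes passed, their log2 fold changes being -0.71 for Hbb-bt, -0.33 for Hbb-bs, 0.20 for Hba-a1 and 0.34 for Hba-a2 (adjusted p from 0.547 to 0.858). Hba-a1 and Hba-a2, like Hbb-bs and Hbb-bt, are near-identical copies whose reads may be shared.

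Levels were compared between the 8 genes per kilobase of the longest coding transcript. In the mutant the order of mean CPM per kilobase was Alad (237), Alas2 (217), Urod (126), Fech (75.2), Ppox (74.3), Cpox (62.4), Alas1 (54.4) and Uros (35.2). In the wild type it was Alad (441), Alas2 (397), Urod (215), Cpox (198), Ppox (162), Fech (116), Alas1 (88.8) and Uros (88.5). Every gene overlapped its neighbour in each order across libraries. Within single libraries, Alas2 was above Urod, Urod above Cpox, Ppox above Fech and Fech above Alas1 in 3 of 3 wild-type libraries, and the other 3 neighbours changed places. In the mutant, Urod was above Fech, Ppox above Cpox and Alas1 above Uros in both libraries, and the other 4 neighbours changed places. With the union of all annotated exons as the length, Alas2 came before Alad in both genotypes, and Alad and Urod no longer overlapped in the wild type.

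Heme synthesis draws on carriers that bring glycine and iron into mitochondria. Of 14 tested genes of the carrier and iron-sulfur list 1 rose and 13 did not pass (median log2 fold change -0.47), where 10.6% of all tested genes were called higher. The gene that rose was Iscu, the scaffold of iron-sulfur clusters, with 297 and 217 CPM in Tet2-mutant replicates 2 and 3, against 73.5, 91.3 and 82.1 CPM in the wild-type libraries (log2 fold change 1.64 ± 0.25, adjusted p = 0.0102). The carriers of the list differed in arrangement. Tet2-mutant replicate 3 was the low library for Slc25a38, the glycine carrier, at 179 and 34.7 CPM in the mutant and 142 to 215 CPM in the wild type, and Slc25a37, the iron importer mitoferrin-1, at 215 and 34.1 CPM against 190 to 370 CPM. Slc25a28, the related importer mitoferrin-2, measured 62.8 and 36.1 CPM in the mutant, above the wild-type range of 24.3 to 34.8 CPM, and Slc25a39, a glutathione carrier, 406 and 245 CPM, within the wild-type range of 215 to 491 CPM. None of these 4 passed (adjusted p from 0.147 to 0.979).

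Of 10 genes of iron uptake and storage, 2 rose and 2 fell (median -0.26), where 10.6% of all tested genes were called higher and 4.43% lower. The macrophage list was higher in the same libraries, at 4491 and 3338 CPM summed in Tet2-mutant replicates 2 and 3 against 277 to 374 CPM in the wild type, and its part in the levels of iron and heme breakdown genes was not tested. The ferritin genes Fth1 and Ftl1, which store iron, rose in both mutant libraries alike. Fth1 measured 6868 and 7379 CPM in Tet2-mutant replicates 2 and 3 and 1926, 2233 and 2323 CPM in the wild-type libraries (log2 fold change 1.72 ± 0.26, adjusted p = 0.00969). Ftl1, the light chain, likewise rose, with a log2 fold change of 1.75 ± 0.27 (adjusted p = 0.011). Slc11a2, the iron transporter DMT1, and Ireb2, the iron regulatory protein IRP2, fell by 1.69 ± 0.36 and 1.38 ± 0.36 (adjusted p = 0.0284 and 0.0466). Both calls were lost in each fit without 1 wild-type library (adjusted p from 0.0672 to 0.25). In those fits 6 to 18 of all tested genes were called lower. Tfrc, the transferrin receptor, measured 236 and 33.4 CPM in the mutant and 328, 328 and 564 CPM in the wild type (adjusted p = 0.152).

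Genes of heme breakdown included members that rose in both mutant libraries. Of 10 tested genes of breakdown and export 4 rose, Hmox1, Hmox2, Blvra and Lrp1, none fell and 6 did not pass, with a median of 0.24, against 10.6% of all tested genes called higher. The median depended on the scale: with upper-quartile scaling 3 of the 10 rose, none fell and the median was -0.08, and with library totals 2 rose, 2 fell and the median was -0.30. Hmox1, heme oxygenase 1, the inducible enzyme that opens the heme ring, measured 239 and 277 CPM in Tet2-mutant replicates 2 and 3 and 85.6, 79.1 and 74.0 CPM in the wild-type libraries. The groups did not overlap (log2 fold change 1.70 ± 0.23, adjusted p = 0.00641). Hmox2, the constitutive form, rose by 1.54 ± 0.27 (adjusted p = 0.0164), Lrp1, a receptor for heme bound to hemopexin, by 1.58 ± 0.32 (adjusted p = 0.0262), and the biliverdin reductase Blvra by 1.06 ± 0.27 (adjusted p = 0.0423). In each fit without 1 wild-type library 1 or 2 of the 10 genes rose. The iron exporter Slc40a1 did not pass, at 457 and 343 CPM in the mutant and 300 to 487 CPM in the wild type (adjusted p = 0.807). Of the macrophage list 10 of 10 genes rose beside these, and 7, 6 and 6 did without wild-type replicates 1, 2 and 3.

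**Figure D4:**
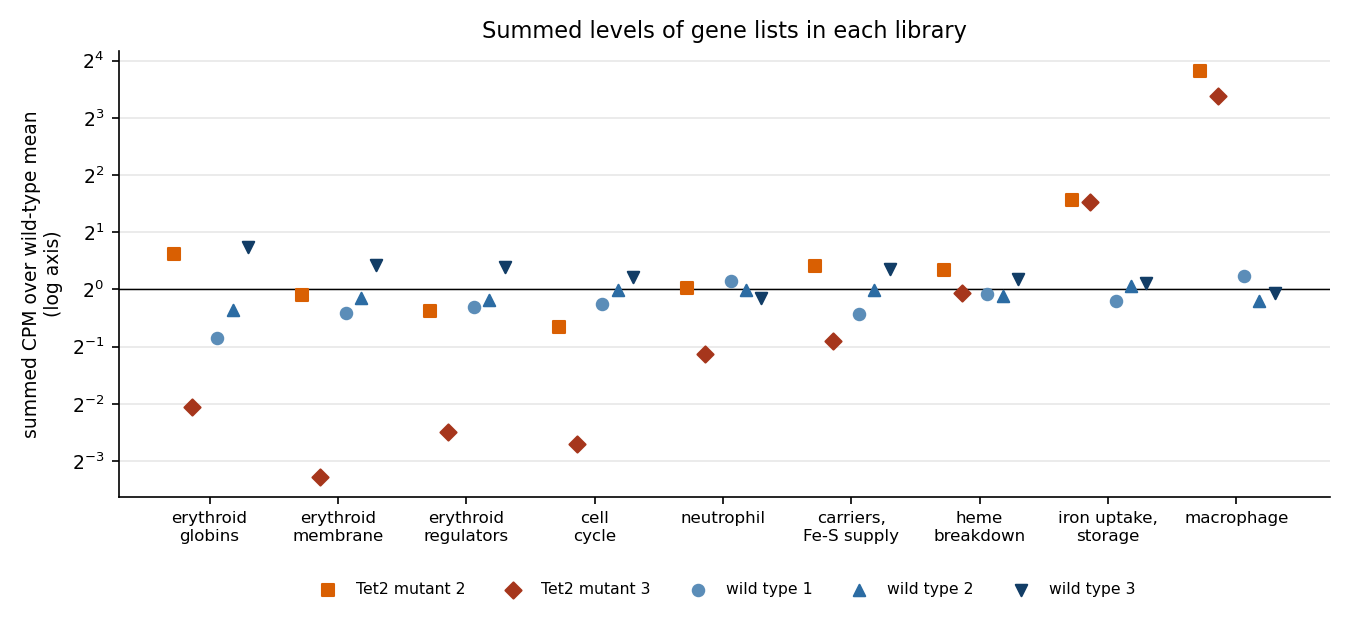
Summed CPM of each gene list divided by its wild-type mean (log axis), 1 point per library, with the line at the wild-type mean. Tet2-mutant replicate 3 is low in the 3 erythroid lists and the cell cycle list, and both mutant libraries are high in the iron list, which ferritin dominates, and in the macrophage list.

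Among 13 regulators of ALAS enzymes and their expression, 0 passed the edgeR test, while 1 passed in DESeq2. The 5 with an unadjusted p under 0.05 in edgeR included Lonp1, a mitochondrial protease that degrades ALAS1, at 49.2 and 27.9 CPM in the mutant and 66.2 to 84.5 CPM in the wild type (log2 fold change -1.02 ± 0.34, adjusted p = 0.0758). Ppargc1a, the coactivator PGC-1alpha that induces Alas1 in liver, had 0 counts in both mutant libraries, which allows up to 0.238 and 0.0553 CPM, and measured 0.0489 to 0.429 CPM in the wild type. Among the others of the 5, Clpp, a subunit of the mitochondrial protease ClpXP, which also degrades ALAS1, measured 68.8 and 138 CPM in the mutant, above the wild-type range of 36.4 to 60.9 CPM (log2 fold change 1.04 ± 0.38, adjusted p = 0.0922). The counts passing changed with the setting. They were 0 higher and 3 lower with library totals as the scale, where 1181 of 17062 genes were higher and 2877 lower. With no filter they were 2 higher and 2 lower, where 3059 of 30639 genes were higher and 1498 lower. Without Tet2-mutant replicate 2 the median log2 fold change of the 13 was -0.49, against -0.30 over all tested genes.

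Across the 5 libraries, the genes most like Alas2 included Trim10, Abcg2, Zgrf1 and Tmcc2, with root mean square differences of 0.0884 to 0.196 in log2 CPM after each gene was centred on its own mean. Trim10 and Tmcc2 are genes of the erythroid lists, and Abcg2 encodes an exporter of porphyrins and heme. The genes most like Alas1 were Ptpn7, C1rl, Ehbp1l1, Odf2 and Ints8, with differences of 0.0293 to 0.0699, and none of them is in the erythroid lists. Among the 8 enzymes themselves, Fech was the closest to Alas2 (0.33), Urod was the closest to Alas1 (0.29), and Alas2 and Uros were the farthest apart (0.98).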

How the data were processed

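The authors deposited 1 table of raw gene counts per library, 55291 symbols each. The submitters' processing notes name Trimmomatic, a read trimmer, STAR, an aligner, and the build mm10. For versions, counter, annotation and strand setting: not given in the sources used here. Per the labels' protocols, libraries came from a SMARTer mRNA-Seq kit, with no molecular identifiers named, so errors cover counting and spread between libraries only.

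Counts were tested in edgeR 4.0.16 under R 4.3.3. Alternatives used DESeq2 1.42.0 and voom of limma 3.58.1. After edgeR's filterByExpr, 17062 genes were scaled by TMM and given edgeR's quasi-likelihood test. P-values were adjusted by Benjamini-Hochberg over all of them, at a threshold of 0.05. All 8 heme enzymes passed the filter. CPM use TMM-adjusted library totals. Each SE was the size of the log2 fold change divided by the square root of F. Ratios within a library used counts plus 0.5 for log2 values. A floor of 3 counts was used for a count of 0. Positions and lengths came from GENCODE M21 (GRCm38), promoter windows from RefSeq. The script was tested on simulated counts.

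Members and lists were chosen with earlier results of these data known. Named genes were the 8 enzymes, Tet2, up to 4 called members of each list by p (up to 2 by unadjusted p where none passed), fixed role and marker genes, and the 5 genes most like Alas1 and Alas2 with a mean of 10 CPM or more. Some genes that this rule names are not reported here. Slc25a38, Slc25a37, Slc25a28, Slc25a39, Clpp, Hba-a2, F13a1, Ly6c2, Klf4, Igll1, Vpreb1, Xist, Bccip, B4galt3, Apex2, Gpr15 and the pairwise likeness of the enzymes were chosen after their values were seen. Alternatives were other scalings, filters and tests, the replicate block and each library left out.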

Additional observations from a re-analysis of the deposited data

How the results depend on the processing

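The direction of the 8 enzymes was negative in the 13 alternatives run, except for Fech without Tet2-mutant replicate 3 (0.16, adjusted p = 0.746; -2.54 to 0.16 with 1 library left out). The count of enzymes called was 2 with upper-quartile scaling, 4 with library totals as the scale, 4 with no filter and 3 with limma-voom, and 0 to 8 with 1 library left out, namely 8 without Tet2-mutant replicate 2 and 0 without each wild-type library, where 1 or 2 had an unadjusted p under 0.05 in edgeR. Over all genes, 4058 were called with library totals, 4557 with no filter, 5109 with DESeq2, and 622 to 10862 with 1 library left out. Lower calls over all genes numbered 6, 18 and 14 without wild-type replicates 1, 2 and 3, against 755 in the main fit. Upper-quartile scaling and library totals shifted the log2 fold changes of all genes by a median of -0.27 and -0.50, and higher calls made up 70.5% with TMM, 43.6% and 29.1% with these. With library totals both mutant libraries lay below every wild-type library for all 8 enzymes, against 4 with TMM. The share of all tested genes that did so was 33.3% with TMM and was not counted with library totals. Library totals called 2877 of 17062 genes lower, so the 8 of 8 cannot be told apart from the shift in scale. The difference in Alas1 per Alas2 was -0.33 to 1.67 with 1 library left out, that in later enzymes per Alas2 -0.37 to 0.81, that in Alas2 per membrane list -0.050 to 0.34 and that in Alas2 per globin -1.25 to -0.65. These ratios turned direction without Tet2-mutant replicate 3 (the first 2) or wild-type replicate 2 (Alas2 per membrane list). The causes were not tested.

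With the replicate block, 5 enzymes (Alas2, Alad, Uros, Cpox and Ppox) were called, all 5 lower. Of all 17062 tested genes 984 were called, 752 higher and 232 lower, and of the 10 heme breakdown genes 1 rose and 1 fell. In that fit wild-type replicate 1 has no mutant library of its number and adds nothing to the difference between genotypes. Its calls thus rest on fewer libraries than the main fit. After removal of genotype means, libraries of the same number had correlations of -0.03 and -0.02. With 2 mutant libraries this removal makes their deviations mirror images. The correlations are therefore not separate checks and can show little about pairing. The numbers are not shown to pair the libraries.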

Other observations

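Markers of other marrow cells were counted in the same libraries. Of 8 monocyte genes 4 rose (Ly86, Ms4a6c, Fcgr1 and Csf1r) and none fell, while 3 had negative log2 fold changes without passing. These 3 were F13a1 (-1.38), Ly6c2 (-0.62) and Klf4 (-0.44). With upper-quartile scaling, the replicate block or limma-voom 1 of the 8 fell, and with library totals 2 did, while 4 rose in each. The summed level of the 8 was 2877 and 1814 CPM in Tet2-mutant replicates 2 and 3 against 1206 to 1362 CPM in the wild type. Of 8 T cell genes 5 rose, led by Cd3g, Trbc2, Trac and Cd3e, with 1012 and 789 CPM summed in the mutant against 64.2 to 155 CPM. Of 8 B cell genes 3 rose (Cd79b, Ms4a1 and Cd79a), and 2 had negative log2 fold changes without passing, Igll1 (-2.60) and Vpreb1 (-1.78). The sum of the 8 was 923 and 7050 CPM in Tet2-mutant replicates 2 and 3 against 134 to 660 CPM. The library lowest in heme enzymes was thus the highest in the summed B cell transcripts. Without Tet2-mutant replicate 3, 0 of the 8 B cell genes rose and the median log2 fold change was -0.75 in place of 1.34, and without wild-type replicates 1, 2 and 3 the counts were 0, 1 and 0. Over all tested genes 10.6% were called higher and 4.43% lower. Among macrophage genes, C1qb, C1qa, C1qc and Spic had the smallest p.

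Of 5 tested megakaryocyte genes Ppbp rose and Gp9 fell (log2 fold changes 1.90 and -2.27). The median was -1.14, and 4 of the 5 had negative log2 fold changes. Both mutant libraries lay below every wild-type library for 4 of the 5, as for 33.3% of all tested genes. The call of Gp9 was lost without each wild-type library (adjusted p from 0.122 to 0.157), where 6 to 18 of all tested genes were called lower. It was also lost with the replicate block (0.23), and the call of Ppbp was lost without wild-type replicate 1 (0.0562). On this list the summed level was 148 and 143 CPM in the mutant against 131 to 158 CPM in the wild type. None of 10 neutrophil genes passed in the main edgeR fit, where 4 had an unadjusted p under 0.05. Cebpe and Elane came closest there (adjusted p = 0.0528 and 0.0866). In edgeR 5 of the 10 were called lower with upper-quartile scaling, library totals or no filter, and 3 with the replicate block. Limma-voom and DESeq2 each called 4 lower. Elane, a protease of early granules, measured 883 and 152 CPM in Tet2-mutant replicates 2 and 3, against 1778 to 2071 CPM in the wild type. None of 10 cell cycle genes passed in the main edgeR fit or in DESeq2. In the main fit 4 had an unadjusted p under 0.05, with Ccnb1 and Cdk1 closest (adjusted p = 0.0946 and 0.0981). In edgeR 5 of the 10 were called lower with upper-quartile scaling, 6 with library totals, 9 with no filter and 8 with the replicate block. Limma-voom called 8 lower. Over all tested genes these settings called 1837, 2877, 1498, 232 and 1365 lower, of 17062 each but 30639 with no filter.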
